A study of Homo sapiens with 6 samples.

Results

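Histone H3.3, its chaperone pair ATRX and DAXX, and the homeobox factors of the ventral forebrain were followed in KNS42 cells after depletion of the RNA-binding protein Musashi1 (MSI1). The 9 genes were taken by name from the deposited table of 58174 genes. They are H3F3A and H3F3B (current symbols H3-3A and H3-3B), ATRX, DAXX, DLX1, DLX2, DLX5, DLX6 and GSX2, and all 9 passed the filter on low values. The established line KNS42 stems from a glioblastoma of childhood. It was grown in medium with serum and is 1 line, so the 6 libraries share 1 genetic background. Cells transfected with a control siRNA (siC, n = 3) were compared with cells given a pool of siRNAs against MSI1 (siMSI1, n = 3), both harvested after 72 h, by mRNA-seq of polyA RNA. The labels do not say whether the 3 libraries of a group came from separate cultures, so p-values measure the spread between these libraries, which may be technical.

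Histone H3.3 is the H3 variant that cells place into chromatin outside DNA replication. H3F3A and H3F3B encode the same protein from different mRNAs, and ATRX with DAXX deposits it at heterochromatin and telomeres. Pediatric gliomas of the cerebral hemispheres can carry a mutation of the H3F3A histone tail, and KNS42 is known as a line of this kind. Such tumors are known for lost ATRX and for homeobox genes of the interneuron lineage, without OLIG2. In the embryonic forebrain GSX2 marks progenitors of the ganglionic eminences and acts upstream of the DLX genes, which lie in convergent pairs (DLX1 with DLX2, DLX5 with DLX6) and drive the formation of GABAergic interneurons. MSI1 binds short UAG-containing words in RNA, mostly in 3′UTRs.

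Levels are given as FPKM, the fragments counted on a gene scaled to its length and to the size of the library. Reads on genes numbered 13087025 to 18024080 per library. For a gene 2 kb long, 3 reads equal 0.0829 to 0.114 FPKM, a lower limit of detection that covers counting error only. MSI1 itself had 64.2 ± 2.53 FPKM (SD, n = 3) in siC and 11.8 ± 0.575 in siMSI1. Of the markers of neural progenitors, SOX2 (301 ± 4.61 FPKM in siC), NES (69.2 ± 1.01) and VIM (1035 ± 33.8) were high. GFAP rose from 1.63 ± 0.335 to 4.61 ± 0.450 FPKM in siMSI1 (log2 fold change of 1.46, adjusted p = 0.000905), S100B and OLIG2 were listed at 0 in all 6 libraries, and SOX10 had at most 1 read.

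The sequences of the loci are shown first. For 6 of the 9 genes RefSeq promoters were at hand (build GRCh38.p14), and the 4 windows below belong to 3 genes that passed the test described further on (H3F3B, DLX2 and DLX6) and to GSX2, which did not. Each is the 240 bases that end 10 bases before the start RefSeq gives, written 5′ to 3′ on the strand of the gene. Capitals mark CCAAT, the E-box CACGTG and TGACG, the core of the cAMP response element, on either strand. Where 2 of these words overlap, as in the joined E-box and TGACG of DLX2, the capitals run together.
H3F3B promoter, chr17:75779790-75780029, minus strand: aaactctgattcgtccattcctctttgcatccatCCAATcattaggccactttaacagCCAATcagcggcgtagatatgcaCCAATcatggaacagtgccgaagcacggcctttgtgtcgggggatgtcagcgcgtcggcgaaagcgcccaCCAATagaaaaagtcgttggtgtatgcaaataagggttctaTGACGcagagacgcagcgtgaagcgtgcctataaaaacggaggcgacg
DLX2 promoter, chr2:172102911-172103150, minus strand: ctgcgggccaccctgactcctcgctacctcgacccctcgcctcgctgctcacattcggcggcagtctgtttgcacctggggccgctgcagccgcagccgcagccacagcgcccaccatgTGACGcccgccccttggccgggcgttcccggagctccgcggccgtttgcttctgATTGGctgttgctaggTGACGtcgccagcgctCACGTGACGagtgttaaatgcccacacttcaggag
DLX6 promoter, chr7:97005303-97005542, plus strand: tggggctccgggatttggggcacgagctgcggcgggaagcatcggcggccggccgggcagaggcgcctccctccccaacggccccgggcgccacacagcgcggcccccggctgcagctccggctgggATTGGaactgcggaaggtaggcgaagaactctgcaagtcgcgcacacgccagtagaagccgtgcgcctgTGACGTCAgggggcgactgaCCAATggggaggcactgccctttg
GSX2 promoter, chr4:54099913-54100152, plus strand: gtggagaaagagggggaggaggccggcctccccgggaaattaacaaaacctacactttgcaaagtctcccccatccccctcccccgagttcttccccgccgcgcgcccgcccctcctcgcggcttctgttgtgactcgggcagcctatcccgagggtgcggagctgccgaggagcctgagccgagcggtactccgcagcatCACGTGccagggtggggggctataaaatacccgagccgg

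H3F3B held 4 CCAAT words in this window, DLX6 and DLX1 held 2 each, DLX2 held 1 and GSX2 held 0. Of 34796 RefSeq promoter windows of this length, 31.4% held at least 1. H3F3A has 4 listed starts, and 3 of its 4 windows held 1 CCAAT word. TGACG was found 3 times for DLX2, 2 times for DLX6 on both strands of 1 palindrome, and 1 time for H3F3B, against 20.4% of all windows with any. It was absent from the windows of DLX1, which passed the test, and of GSX2 and H3F3A, which did not. The E-box was found in DLX2 and GSX2 (5.99% of all windows), TATAAA in H3F3B and GSX2 (10.6%), and TAATTA, a word bound by many homeodomains, in none of the windows of these genes (4.31%). The DLX2 window is shared by a pair of genes. The start of the noncoding gene DLX2.AS1 (current symbol DLX2-DT) lies 106 bases away from that of DLX2 and points the other way.

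The 3′UTRs of the 9 genes differed widely in TAG, the DNA form of the UAG core that MSI1 binds. The median over 10943 tested protein-coding genes was 11.3 per kb. H3F3B had 37 TAG words in 2161 bases, or 17.1 per kb, which is above 91.6% of these genes, and ATRX had 57 in 3471 bases (16.4 per kb). The DLX genes were lower. DLX5 had 4 in 340 bases (11.8 per kb), DLX6 had 7 in 993 (7.05), DLX1 had 8 in 1417 (5.65) and DLX2 had 3 in 1105 (2.71). GSX2 had 8.68, H3F3A 9.26 and DAXX 0 per kb. The 4-base GTAG was absent from the 3′UTRs of DLX2, DLX6 and DAXX and reached 5.09 per kb in H3F3B and 5.56 in H3F3A, against a median of 2.37. The 30 bases with the most TAG words (in capitals, from GENCODE release 44 on GRCh38, 5′ to 3′ on the strand of the gene) are printed for the 5 genes that passed the test described next. These are matches of letters, and binding was not measured here.
H3F3B 3′UTR, chr17:75777177-75777206, minus strand: gttccgTAGtgTAGaagcccacaggtgTAG
DLX1 3′UTR, chr2:172088409-172088438, plus strand: cccagcaacttcccggcatccgcgctcTAG
DLX2 3′UTR, chr2:172099890-172099919, minus strand: tttttatttgttatttttttaaaagttTAG
DLX5 3′UTR, chr7:97020447-97020476, minus strand: tatttTAGccatgtaaataagtgTAGaTAG
DLX6 3′UTR, chr7:97010048-97010077, plus strand: gttgcccaagggaacacccTAGggaaacgt

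Of the 9 genes, 5 passed the threshold (adjusted p of at most 0.01, limma). DLX1, DLX2, DLX5 and DLX6 fell and H3F3B rose. H3F3A, ATRX, DAXX and GSX2 did not pass. Among all 15069 tested genes 11.0% passed in either direction, 5.83% as lower and 5.15% as higher. The median log2 fold change was -0.16 over the 9 genes and 1.46e-05 over all tested genes, whose median absolute change was 0.24. The values of the groups did not overlap for 6 of the 9 genes, against 42.8% of all tested genes. In an exact two-sided permutation test of single genes these 6 reached p = 0.1, the smallest that 3 against 3 libraries allow. With bulk RNA, fewer cells that express a gene and less RNA per cell cannot be told apart.

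**Figure D1:**
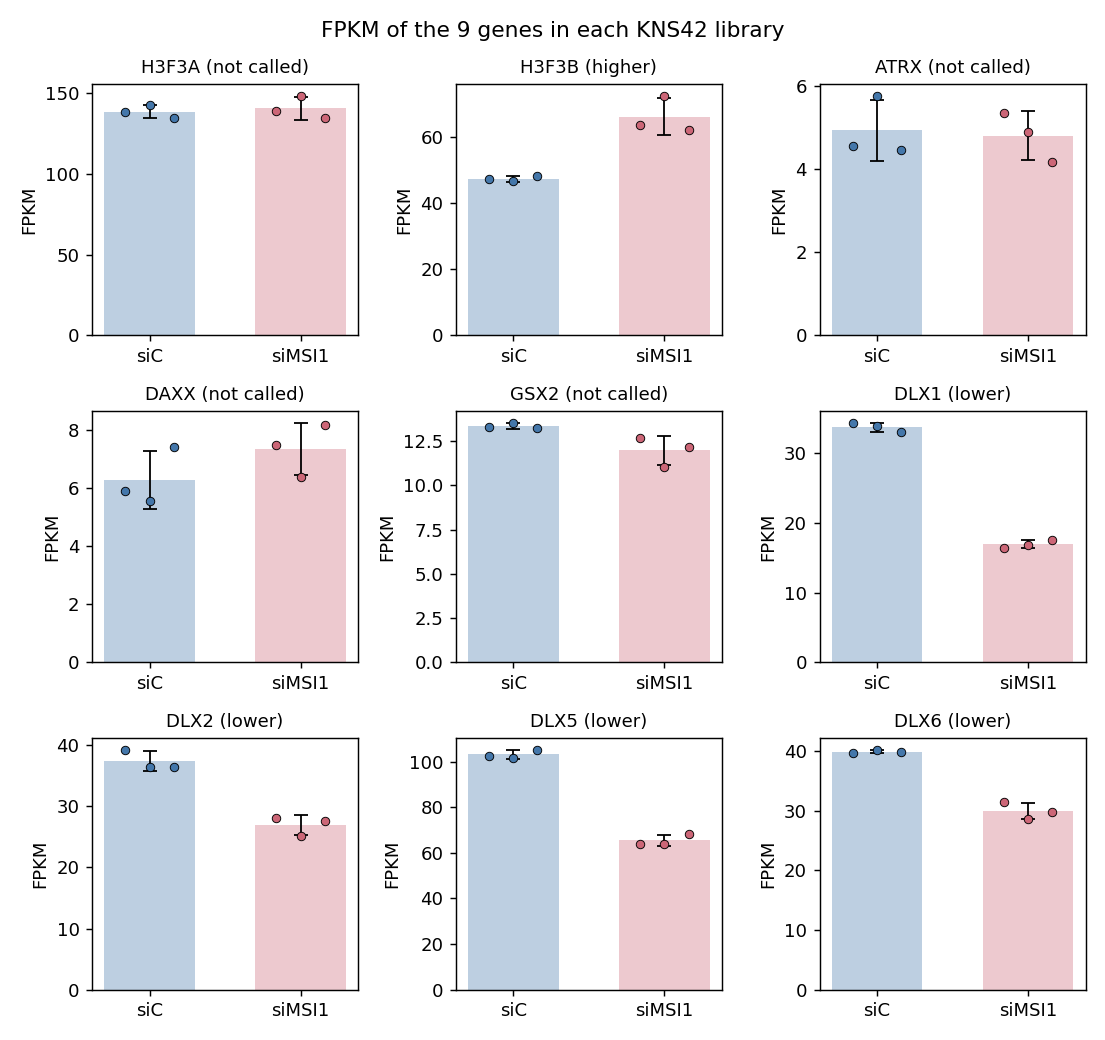
FPKM of each of the 9 genes (vertical axes, from 0, with a scale for each gene) in the control (siC, blue) and MSI1 knockdown (siMSI1, red) libraries. Bars are means, error bars SDs (n = 3) and points single libraries; the DLX panels show 2 separate groups, while the points of H3F3A, ATRX and DAXX overlap.

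The 2 genes of histone H3.3 behaved differently. H3F3A (GRCh38, chr1:226061851-226072019, plus strand) was the most abundant of the 9 genes, with 138, 143 and 135 FPKM in siC and 139, 148 and 134 in siMSI1. The groups overlapped fully. The means were 138 ± 3.94 and 141 ± 7.09 FPKM (SD, n = 3), the log2 fold change was 0.02 with a 95% interval of -0.13 to 0.17, and 6075 to 8113 reads lay behind each value. H3F3B (chr17:75776434-75785893, minus strand) had 47.2, 46.6 and 48.2 FPKM in siC and 63.7, 72.6 and 62.2 in siMSI1. Every siMSI1 library was above every siC library, and siMSI1 replicate 2 was the highest. The mean rose from 47.3 ± 0.794 to 66.2 ± 5.58 FPKM, a log2 fold change of 0.48 with a standard error of 0.07 (adjusted p = 0.00368). The call was lost without any 1 of siC replicates 1, 2 and 3 (adjusted p of 0.0230, 0.0160 and 0.0144) or without siMSI1 replicate 1 (0.0111), and held without siMSI1 replicate 2 at a log2 fold change of 0.41 (adjusted p = 0.00890).

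The sum of both H3.3 genes was 186 ± 3.17 FPKM in siC and 207 ± 12.6 in siMSI1. H3F3A made up 74.5% ± 0.854 of this sum in siC and 68.0% ± 0.755 in siMSI1, a difference of -6.49 percentage points. The lowest siC library was at 73.7% and the highest siMSI1 library at 68.5%. The share depends on what is summed. Over reads instead of FPKM it went from 60.0% to 52.2%, and with the processed pseudogenes and H3F3C in the sum from 46.9% to 44.8%. H3F3AP4, a near copy of H3F3A, alone had 96.3 ± 2.66 and 91.6 ± 4.22 FPKM, and H3F3AP6 had 12.2 ± 2.95 and 14.3 ± 1.04. Both are only 411 bases long, so these FPKM rest on few reads. H3F3AP4 had 503 to 739 reads per library and H3F3AP6 55 to 113, against 6075 to 8113 for H3F3A. Reads of H3F3A and of these copies may have been assigned to one another, so their split is uncertain. With the reads of H3F3A, its pseudogenes and H3F3C summed, an alternative chosen after the data were seen, the log2 fold change was 0.016. H3F3C, the retrogene that encodes the related variant H3.5, had at most 5 reads. UNK, which overlaps H3F3B on the opposite strand, went from 11.3 ± 0.477 to 8.99 ± 0.870 FPKM (adjusted p = 0.0292), and its part in the H3F3B value was not tested.

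**Figure D2:**
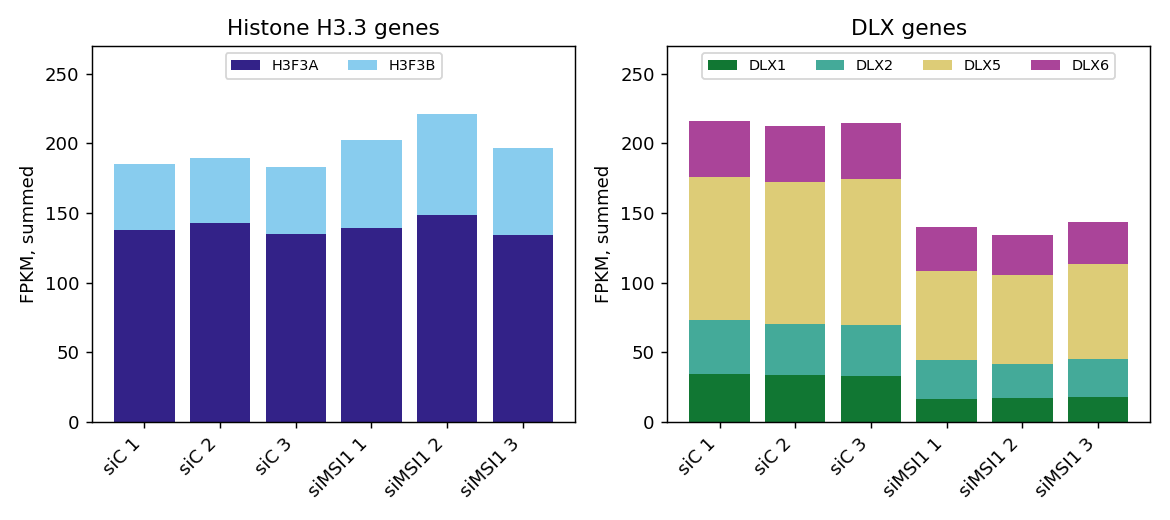
Stacked FPKM (vertical axes, from 0) of the 2 H3.3 genes (left) and the 4 DLX genes (right) in each library. H3F3B takes a larger part of the H3.3 stack in all 3 siMSI1 libraries, and the DLX stack is shorter in all 3.

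ATRX, the chromatin remodeler of the pair, had 4.55, 5.76 and 4.46 FPKM in siC and 5.34, 4.90 and 4.17 in siMSI1. DAXX, the chaperone that binds H3.3 itself, had 5.89, 5.56 and 7.42 FPKM in siC and 7.48, 6.38 and 8.17 in siMSI1. Both genes overlapped between the groups and varied more within them than the other 7 genes, with coefficients of variation of 12.3% to 15.8%. The log2 fold change of ATRX was -0.03 (95% interval of -0.34 to 0.28, adjusted p = 0.886) and that of DAXX 0.22 (-0.09 to 0.54, adjusted p = 0.265). The interval of DAXX includes the change of H3F3B, so a rise of that size is not excluded. ATRX mRNA lay above 48.7% of the tested genes in siC. The table holds no protein or sequence variants, so function of ATRX was not measured.

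The 4 DLX genes fell together, by unequal amounts. DLX1 (chr2:172084740-172089677, plus strand) had 34.2, 33.8 and 32.9 FPKM in siC and 16.4, 16.8 and 17.5 in siMSI1. The groups lay far apart, with little spread within each. The mean fell from 33.6 ± 0.638 to 16.9 ± 0.578 FPKM, to 50.2% of the control, with a log2 fold change of -0.99, a standard error of 0.06 and an adjusted p of 0.000206. By p-value it ranked 17 among the 15069 tested genes. DLX2 (chr2:172099438-172102900, minus strand), its neighbor, had 39.2, 36.5 and 36.5 FPKM in siC and 28.1, 25.1 and 27.7 in siMSI1. All 3 siMSI1 libraries were lower, and the mean stood at 72.0% of the control (log2 fold change of -0.47, standard error of 0.07, adjusted p = 0.00311). The ratio of DLX1 to DLX2 went from 0.899 ± 0.0274 to 0.628 ± 0.0423, with no overlap of the libraries.

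DLX5 (chr7:97020396-97024950, minus strand) was the most abundant DLX gene, with 103, 102 and 105 FPKM in siC and 64.0, 63.9 and 68.4 in siMSI1. Its mean fell from 103 ± 1.79 to 65.5 ± 2.57 FPKM, to 63.4% (log2 fold change of -0.66, standard error of 0.06, adjusted p = 0.000522). DLX6 (chr7:97005553-97011040, plus strand) had 39.7, 40.2 and 39.8 FPKM in siC and 31.4, 28.7 and 29.7 in siMSI1. The siC libraries lay within 1 FPKM of each other and above every siMSI1 library. The mean stood at 75.1% of the control (log2 fold change of -0.41, standard error of 0.06, adjusted p = 0.00311). In both pairs 1 gene fell further than its partner. The 95% interval of DLX1 (-1.13 to -0.85) did not reach that of DLX2 (-0.64 to -0.31), whereas those of DLX5 (-0.80 to -0.52) and DLX6 (-0.56 to -0.27) overlapped. The ratio of DLX5 to DLX6 went from 2.59 ± 0.0570 in siC to 2.19 ± 0.136 in siMSI1, also with no overlap of the libraries.

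Summed over the 4 genes, the DLX level fell from 214 ± 1.82 to 139 ± 4.49 FPKM, to 65.0% of the control. DLX1 made up 15.7% ± 0.301 of this sum in siC and 12.1% ± 0.390 in siMSI1, and DLX5 close to one and the same part (48.2% ± 0.775 and 47.0% ± 1.08). DLX1 and DLX5 passed the threshold under all 16 alternative settings. DLX2 and DLX6 did not pass without any 1 of siC replicates 1, 2 and 3 (adjusted p of 0.0222, 0.0112 and 0.0120 for DLX2, and of 0.0222, 0.0146 and 0.0143 for DLX6) or without siMSI1 replicate 2 (0.0107 and 0.0122), while their log2 fold changes stayed between -0.50 and -0.38.

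**Figure D3:**
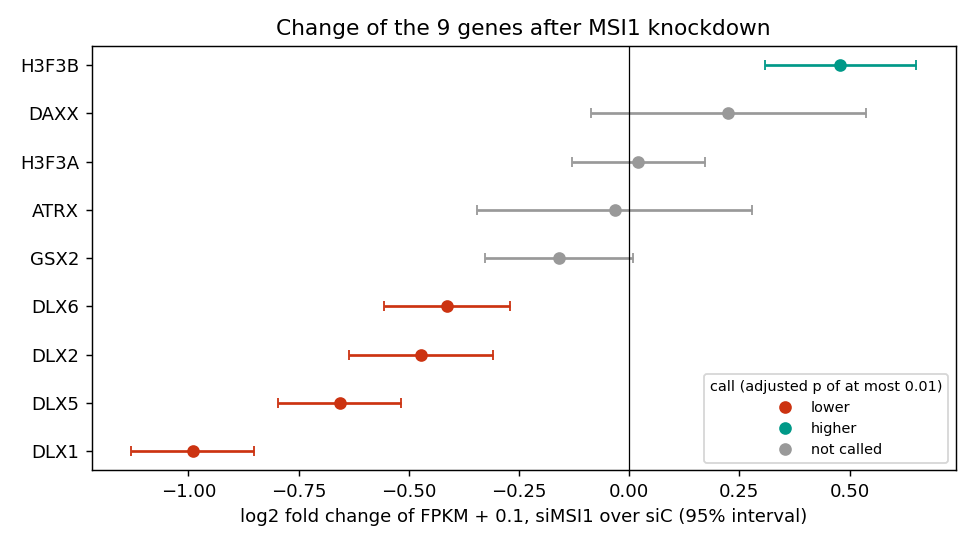
Log2 fold change of FPKM + 0.1 of siMSI1 over siC (horizontal axis) for the 9 genes, with 95% intervals from limma. Red marks genes that fell, green the gene that rose and grey those that did not pass; the intervals of the 4 DLX genes end at or below -0.27.

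Each DLX pair is accompanied by a noncoding gene, and these moved in opposite directions. DLX6.AS1 (current symbol DLX6-AS1, the counterpart of mouse Evf2, chr7:96955141-97014088, minus strand) spans the whole DLX6 gene on the other strand. It fell from 39.1 ± 2.86 to 16.4 ± 1.97 FPKM, a log2 fold change of -1.25 with a standard error of 0.10 (adjusted p = 0.000366). Its ratio to DLX6 went from 0.980 ± 0.0672 to 0.549 ± 0.0774. The libraries were strand-specific, but whether the counting used the strand is not given in the sources used here, so reads of DLX6 and DLX6.AS1 cannot be told apart with certainty. With the reads of both genes summed, an alternative chosen after the data were seen, the log2 fold change was -1.07 (adjusted p = 0.000362). DLX6.AS1 had 3412 to 12566 reads per library and DLX6 1297 to 2507. The sum therefore mostly follows DLX6.AS1 and cannot show whether DLX6 alone fell. DLX2.AS1 (chr2:172103006-172109982, plus strand) rose from 1.35 ± 0.116 to 3.24 ± 0.248 FPKM (log2 fold change of 1.20, standard error of 0.12, adjusted p = 0.000718). It rested on 17 to 48 reads per library. Of the other family genes DLX3 had at most 6 reads and DLX4 at most 13, and GSX1 was listed at 0 in all libraries.

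GSX2 (chr4:54099523-54102498, plus strand) had 13.3, 13.5 and 13.2 FPKM in siC and 12.7, 11.1 and 12.1 in siMSI1. The libraries of the groups did not overlap, yet the difference was small. The mean was 13.3 ± 0.150 FPKM in siC and 12.0 ± 0.832 in siMSI1, 89.6% of the control. The log2 fold change of -0.16 had a 95% interval of -0.33 to 0.01 (adjusted p = 0.151), and GSX2 did not pass under any of the 16 alternative settings. This interval does not reach the log2 fold changes of DLX1, DLX2, DLX5 and DLX6. The difference between GSX2 and the DLX genes was not tested in a model of its own.

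The order of the levels changed at 1 place. In siC it was H3F3A, DLX5, H3F3B, DLX6, DLX2, DLX1, GSX2, DAXX and ATRX. Only DAXX and ATRX could not be separated there, as their libraries overlapped. In siMSI1 the libraries of H3F3B (62.2 to 72.6 FPKM) and DLX5 (63.9 to 68.4 FPKM) overlapped, and the remaining order was the same, with DAXX above ATRX. DLX5 lay above 97.4% of the tested genes in siC, and DLX1 above 89.4% and 78.7%.

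The DLX loci were then compared with their surroundings by taking the 2 nearest protein-coding genes on each side. Around DLX1 and DLX2, METAP1D at 2.31 kb (log2 fold change of 0.13, adjusted p = 0.396) and PDK1 (-0.03, adjusted p = 0.931) did not pass. SLC25A12, a mitochondrial aspartate and glutamate carrier 84.9 kb away, rose from 7.29 ± 0.373 to 9.95 ± 0.670 FPKM (log2 fold change of 0.44, adjusted p = 0.00724). ITGA6, a laminin-binding integrin 324 kb away on the other side, fell from 5.97 ± 0.489 to 3.76 ± 0.440 FPKM (log2 fold change of -0.66, adjusted p = 0.00558). Both calls were unsteady when 1 library was left out and fewer samples were fitted. Over the 16 alternatives the log2 fold change was 0.40 to 0.50 for SLC25A12 and -0.74 to -0.55 for ITGA6. SLC25A12 passed without siMSI1 replicate 3 alone (adjusted p of 0.0155 to 0.0363 without each of the other 5 libraries), and ITGA6 without siMSI1 replicates 2 and 3 alone (0.0117 to 0.0281 without each of the other 4). Around DLX5 and DLX6 none of the 3 tested neighbors passed. The log2 fold change was 0.28 for SEM1 (adjusted p = 0.0754), 0.01 for SLC25A13 and 0.06 for SDHAF3, and TAC1 was too low to test. Next to GSX2, CHIC2 went from 14.7 ± 0.512 to 16.9 ± 0.359 FPKM (adjusted p = 0.0497) and PDGFRA, a growth factor receptor 127 kb away, from 20.9 ± 0.468 to 24.1 ± 1.35 (adjusted p = 0.0621).

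**Figure D4:**
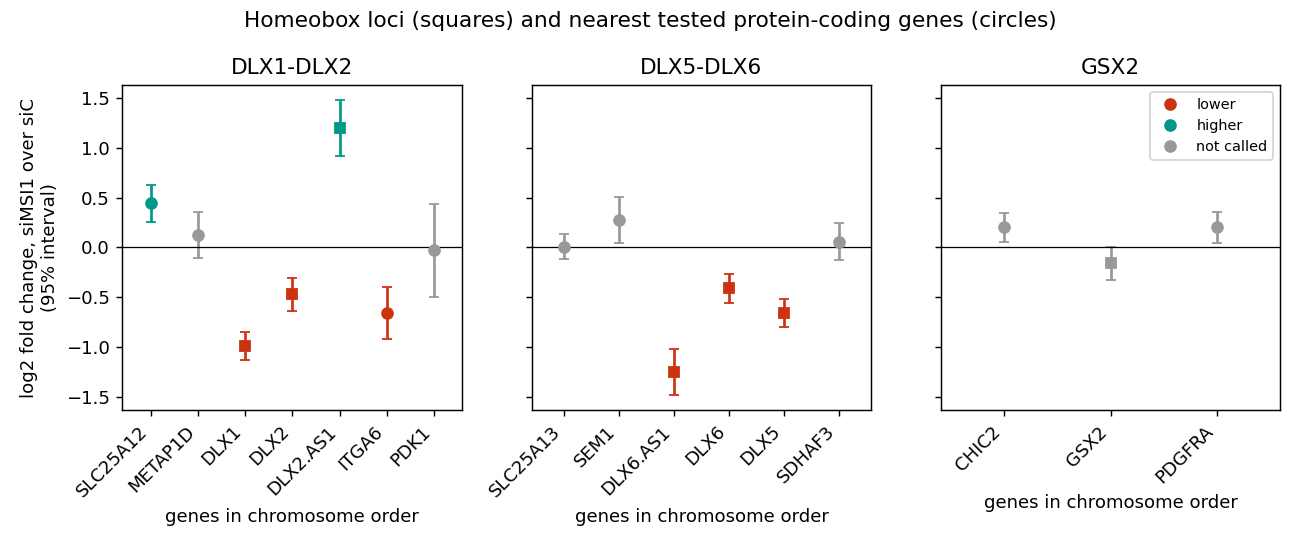
Log2 fold change of siMSI1 over siC (vertical axis, with 95% intervals) of the genes at the DLX1-DLX2, DLX5-DLX6 and GSX2 loci (squares) and of their nearest tested protein-coding genes (circles), in chromosome order without a distance scale. Red marks genes that fell and green those that rose; at the DLX5-DLX6 locus the 3 squares are red and the 3 circles grey.

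At the other loci 2 neighbors passed. MAGT1 beside ATRX rose (log2 fold change of 0.64, adjusted p = 0.00219) and KIFC1, a mitotic kinesin beside DAXX, fell (-0.66, adjusted p = 0.00156). KIFC1 lost its call without siC replicate 1 (adjusted p = 0.0113), and MAGT1 without siC replicate 1 or 3 or siMSI1 replicate 1 (0.0144, 0.0102 and 0.0112). GALK1 and ITGB4, the genes nearest to H3F3B on one side, had log2 fold changes of -0.55 (adjusted p = 0.0179) and 0.39 (0.0213), and SDE2 and ACBD3 beside H3F3A had -0.15 and -0.26.

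Of the chaperones that handle H3, 7 of 15 fell and 0 rose (46.7% against 11.0% of all genes), with a median log2 fold change of -0.37. The group holds factors for H3.3 and for replication-coupled H3 alike. UBN1, a subunit of the HIRA complex that deposits H3.3, fell from 7.17 ± 0.233 to 4.29 ± 0.0687 FPKM (log2 fold change of -0.73, adjusted p = 0.000718). HIRA itself went from 7.42 ± 0.586 to 9.07 ± 0.800 FPKM (0.29, adjusted p = 0.0605), UBN2 had a log2 fold change of 0.19 and CABIN1 of -0.10. The 2 specific subunits of CAF-1, which loads H3 at replication forks, fell: CHAF1A from 44.8 ± 2.15 to 27.6 ± 0.355 FPKM (-0.70, adjusted p = 0.000497) and CHAF1B from 7.22 ± 0.310 to 3.92 ± 0.133 (-0.87, adjusted p = 0.000522). ASF1B (-0.59), the helicase subunit MCM2 (-0.53), the histone binder RBBP4 (-0.47) and HJURP (-0.37), which loads the centromeric H3 CENPA, fell as well. The most abundant of the list over all 6 libraries was DEK, a chromatin protein that binds H3.3, at 64.4 ± 7.76 FPKM in siC and 47.1 ± 6.92 in siMSI1 (adjusted p = 0.0383), close to ASF1B at 66.5 ± 3.76 and 44.2 ± 5.64. ASF1A, the paralog of ASF1B, stood at 0.21 on the log2 scale (adjusted p = 0.193). Without 1 library the list gave 3 calls (without siC replicate 1, 2 or 3, or siMSI1 replicate 1), 4 (without siMSI1 replicate 2) or 7 (without siMSI1 replicate 3), all lower.

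**Figure D5:**
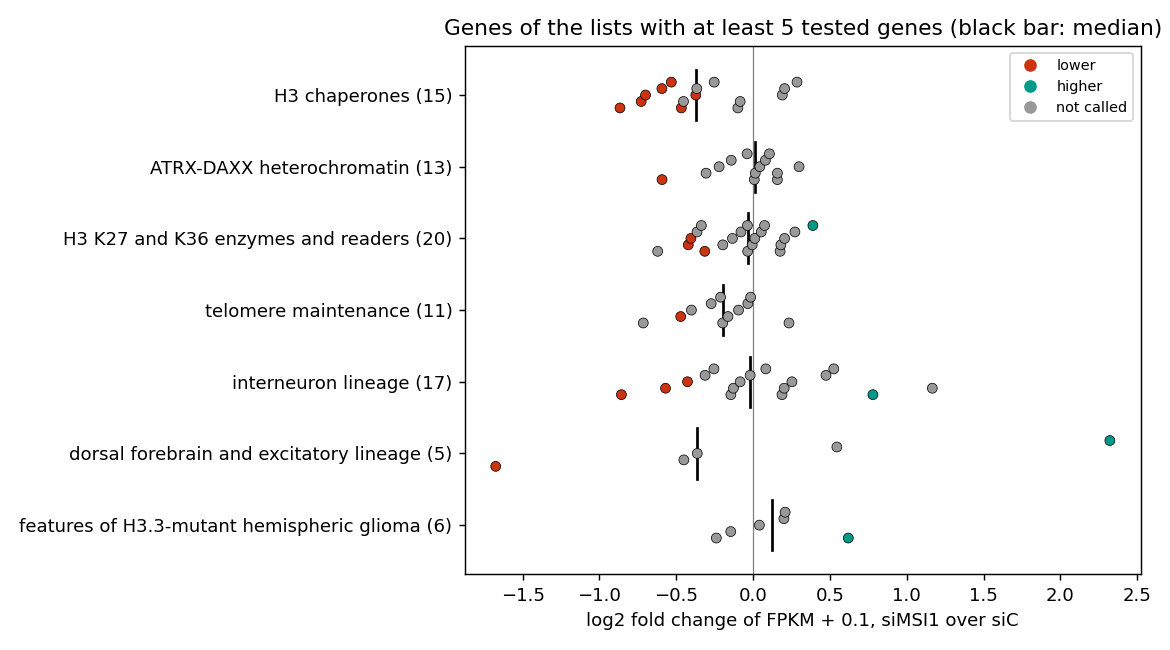
Log2 fold change of FPKM + 0.1 of siMSI1 over siC (horizontal axis) for each tested gene (points) of the lists with at least 5 tested genes, named on the vertical axis with their number. Red points fell, green points rose and grey points did not pass; the black bar is the median, which is -0.37 for the H3 chaperones and 0.01 for the partners of ATRX and DAXX.

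Among the heterochromatin partners of ATRX and DAXX, 1 of 13 fell and 0 rose (7.69%, near the 11.0% of all genes), with a median log2 fold change of 0.01. SUV39H2, a methyltransferase for H3 lysine 9, fell from 11.3 ± 0.766 to 7.46 ± 0.480 FPKM (-0.59, adjusted p = 0.00252), a call that was lost without any 1 siC library (the highest adjusted p was 0.0112). TRIM28, the corepressor KAP1, was the most abundant at 137 ± 11.6 FPKM in siC and had a log2 fold change of 0.01. Of the enzymes and readers of H3 lysines 27 and 36, 3 of 20 fell and 1 rose, together 4 of 20 against 11.0% of all genes. Those that fell were EZH2, the methyltransferase for lysine 27 (log2 fold change of -0.40, adjusted p = 0.00815), the lysine 36 methyltransferase NSD2 (-0.31, 0.00881) and the mismatch repair protein MSH6, which reads lysine 36 (-0.42, 0.00447). The demethylase KDM4A rose (0.39, adjusted p = 0.00393). SETD2, which trimethylates lysine 36, had -0.04 (adjusted p = 0.827). ZMYND11, a reader of lysine 36 methylation on H3.3 and the most abundant of this list over all 6 libraries (KDM4A was above it in siMSI1), went from 30.3 ± 2.99 to 23.5 ± 2.54 FPKM (adjusted p = 0.0364). This list gave 2 calls without siMSI1 replicate 3, 1 without siC replicate 3 and 0 without each of the other 4 libraries. For telomere genes 1 of 11 fell (9.09%, near the 11.0% of all genes), the shelterin subunit ACD (-0.47, adjusted p = 0.00397). With 1 library left out, ACD passed without siMSI1 replicate 3 alone, and its adjusted p was 0.0140 to 0.0175 without each of the other 5. TERF2IP, the most abundant, went from 66.9 ± 1.76 to 50.9 ± 6.21 FPKM (adjusted p = 0.0167), and TERT from 0.864 ± 0.213 to 0.479 ± 0.0535 (0.102).

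The interneuron list held 35 genes, of which 17 were expressed enough to test. Of these 3 fell and 1 rose (23.5% against 11.0% of all genes), and the median log2 fold change was -0.02. Among those that fell were SP8 and SP9, zinc finger transcription factors of the ventral forebrain. SP8 was the most abundant and fell from 97.6 ± 6.56 to 53.8 ± 1.20 FPKM (-0.86, adjusted p = 0.000366). SP9 fell from 59.8 ± 4.57 to 40.2 ± 1.55 (-0.57, adjusted p = 0.00191). NPAS1 rose from 1.84 ± 0.0685 to 3.26 ± 0.544 FPKM (0.78, adjusted p = 0.00599). With 1 library left out, NPAS1 passed without siMSI1 replicate 3 alone, and its adjusted p was 0.0124 to 0.0239 without any other library. The list gave 1 call without siC replicate 1 or 3, 2 without siC replicate 2 or siMSI1 replicate 1 or 2, and 4 without siMSI1 replicate 3, with SP8 among them every time. NR2F1 at 52.3 ± 1.31 FPKM in siC had a log2 fold change of -0.08 and NR2F2 of -0.25 (adjusted p = 0.0269). MAF went the other way, from 1.90 ± 0.122 to 2.78 ± 0.0939 FPKM (0.53, adjusted p = 0.0118). EBF1 did so too, from 1.24 ± 0.0422 to 1.76 ± 0.144 (0.47, adjusted p = 0.0378), and neither passed. Of the 17 tested genes of the list, 9 had a log2 fold change below 0 and 8 above 0. Markers of maturing interneurons differed in level. The calcium-binding protein CALB1 had 5.41 ± 0.474 FPKM in siC and 4.97 ± 0.721 in siMSI1 (adjusted p = 0.502). Its relative CALB2 had 0.443 ± 0.0478 FPKM in siC on 10 to 15 reads and was higher in every siMSI1 library, on 21 to 36 reads (log2 fold change of 1.17, adjusted p = 0.0152). GAD1, which makes GABA, had 0.786 ± 0.0480 and 0.614 ± 0.0356 FPKM, GAD2 and the GABA transporter SLC32A1 were too low to test, PVALB was listed at 0 and SST had at most 1 read. LHX6 and NKX2.1, factors of the medial ganglionic eminence, had at most 5 and 7 reads.

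In the dorsal forebrain and excitatory list 5 of 14 genes were tested, of which 1 fell and 1 rose, too few to set against the 11.0% of all genes. NEUROG2, a proneural factor of cortical progenitors, fell from 4.30 ± 0.399 to 1.29 ± 0.279 FPKM (-1.67, adjusted p = 0.000571), and EOMES, which marks intermediate progenitors, rose from 0.728 ± 0.0556 to 4.04 ± 0.240 FPKM (2.32, adjusted p = 0.000167). Both passed under all 16 alternatives. PAX6, at 4.13 ± 0.141 FPKM in siC, stood at -0.45 on the log2 scale (adjusted p = 0.0110). Of the features of H3.3-mutant hemispheric glioma, 6 of 10 genes were tested and 1 rose, again too few to set against the 11.0% of all genes. MYCN rose from 78.2 ± 2.33 to 120 ± 2.40 FPKM (0.62, adjusted p = 0.000554) and was the most abundant of the list. OLIG1, OLIG2 and OLIG3 were listed at 0 in every library.

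Most markers of other cell types were low. Of 16 genes for oligodendrocytes, microglia, endothelium, fibroblasts and neurons 2 were high enough to test, COL1A1 and SYT1, and 0 passed in limma (0 also at an unadjusted p of 0.05, with 0.236 and 0.0507). The endothelial genes CDH5 (0 to 3 reads in siC, 9 to 22 in siMSI1) and PECAM1 (0 to 1 and 5 to 8 reads) were too low to test but higher in every siMSI1 library, and their part in the results was not tested. MOG, AIF1 and RBFOX3 were listed at 0. The summed level of the 16 genes was 6.02 to 9.96 FPKM in siC and 6.09 to 7.74 in siMSI1. Of the other rows of the H3.3 and homeobox families, 8 were listed, 7 were in the table and 3 were tested, of which DLX6.AS1 fell, DLX2.AS1 rose and CENPA did not pass (log2 fold change of -0.09, adjusted p = 0.294).

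The 3 genes most like DLX1 over the 6 libraries, by Pearson correlation of log2 values, were ANKRD13A (r = 0.9999), WASF2 (0.999) and UBE2G2 (0.998). The 6 points fall into the 2 groups and share libraries and depth, so these values describe the same fall. Many of the 13039 genes compared also correlated closely with DLX1, so a high r is not particular to these 3. WASF2, an actin regulator, went from 15.6 ± 0.389 to 7.89 ± 0.345 FPKM, ANKRD13A from 7.11 ± 0.0787 to 4.90 ± 0.0786 and UBE2G2, a ubiquitin-conjugating enzyme, from 12.0 ± 0.123 to 6.37 ± 0.0444.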

How the data were processed

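The sources are 6 mRNA-seq libraries of KNS42 cells (siC, n = 3, and siMSI1, n = 3), grouped by their titles. Per the labels, the authors used cutadapt 1.14, HISAT2 2.1.0 on hg38, SAMtools 1.5 and featureCounts 1.5.3, and deposited FPKM values per gene. The library sizes behind them carried a factor of 0.976 to 1.02. The log2 fold changes, p-values and false discovery rates that the authors computed from their counts and deposited in the same table were not used. FPKM times gene length came out as whole reads for all values (tolerance of 0.001 reads), which gave the read counts behind each value. Genes whose FPKM averaged 0.5 or more (15069) were fitted as log2(FPKM + 0.1) with limma 3.58.1 in R 4.3.3 (eBayes with trend and robust, no block), two-sided. The p-values were adjusted across these genes after Benjamini and Hochberg, and the threshold was 0.01. The added value makes fold changes of low genes smaller than they are. The fit was tested on simulated data. Python 3.11.15 was used for the rest.

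The 9 genes and the gene lists were chosen with earlier results of these data known. Named genes were the 9 genes, MSI1, in each list the genes that passed (at most 5 with the largest change) and the most abundant one, the 2 nearest protein-coding genes on each side of a locus, and the 3 genes most like the gene with the smallest adjusted p. Other genes were named after their values were seen. Positions, 3′UTRs (MANE Select transcript, else the longest, at least 100 bases) and neighbors came from GENCODE release 44, another annotation release than the authors used, and promoters from RefSeq. Alternatives were added values of 1 and 0.01, no filter, a mean FPKM of at least 1, median centring, quantile normalization, plain moderation, voom on the recovered reads with and without the replicate block, the replicate block, and each library left out, and for counts a threshold of 0.05. Some listed genes are counted but not reported here by name. DLX6-AS2 was not matched in the table, and no protein sequences were used here.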

Additional observations from a re-analysis of the deposited data

How the results depend on the processing

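The calls of DLX1 and DLX5 held under all 16 alternatives, those of DLX2, DLX6 and H3F3B did not. Of the 9 genes, 5 passed; 3 passed without the filter on low genes, 2 with plain moderation and 2 to 5 when 1 library was left out (2 without siC replicate 1, 2 or 3, 4 without siMSI1 replicate 1, 3 without siMSI1 replicate 2 and 5 without siMSI1 replicate 3), and fewer samples were then fitted. Of the listed genes 22 passed, against 11 without the filter, 9 with plain moderation, 36 at an adjusted p of 0.05, 43 with voom and the replicate block, and 9 to 20 with 1 library left out. Over all tested genes 1655 passed, with 517 to 4634 under the alternatives. The sign of the H3F3A value, never called, turned with quantile normalization (-0.054) and ranged from -0.018 to 0.052 with 1 library left out, and that of ATRX ranged from -0.11 to 0.083. Whether the shared replicate numbers pair the libraries was not settled. Same-numbered deviations from the group means correlated at -0.066, 0.078 and 0.083 for replicates 1, 2 and 3. Replicates 2 and 3 correlated best with their own number and replicate 1 did not, and deviations within such small groups cannot decide this. With the replicate block alone 5 of the 9 genes, 25 listed genes and 2250 genes in all passed. Depth limits ATRX and DAXX less than the spread between libraries.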
